A study of Mus musculus with 6 samples.

Results

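The genes described here encode the matrix proteins of the heart other than collagens: adhesive and matricellular glycoproteins, proteoglycans, elastic fibre proteins, the lysyl oxidases that crosslink fibres, and basement membrane proteins. They were chosen by symbol, as a list of 46 genes, and 42 of them had a probe set among the 18029 genes measured. Spp1, Fbn1, Efemp2 and Loxl2 were not analysed here. Where a gene had several probe sets, the brightest on average over the 6 arrays stands for it and is called its main probe set. The list was drawn up from what the proteins are and not from their values, although earlier results of these data were known when it was made.

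RNA of heart tissue was measured on Affymetrix expression arrays, 1 array per mouse. The control group was 3 mice of genotype Flox, wild type, and the other group 3 mice of genotype Tmbim1 KO, all on a C57BL/6 background. Every animal was 8 weeks old and had aortic banding, a surgical narrowing of the aorta that loads the left ventricle with pressure, for 2 weeks, so the wild type hearts are banded hearts as well. The labels give no measure of the load in single hearts, so whether it was alike in all of them is not known here. The labels name no Cre driver for the knockout, do not say whether every cell type of the heart lost the gene, and do not say whether the groups were littermates. The product of Tmbim1 spans the membranes of endosomes and lysosomes. The question put to the arrays is how expression in a banded heart changes with the loss of Tmbim1. Values are log2 signals, so a difference of 1 is a doubling, and differences are knockout minus wild type.

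In the loaded heart, fibroblasts secrete most of the interstitial matrix. Collagen fibrils bear the load, and the proteins treated here set how fibrils assemble, how they are joined, how they hold water and growth factors, and how cells grip them. Matricellular proteins such as periostin and the thrombospondins are sparse in the healthy adult ventricle and are made in quantity during remodelling, whereas laminins, nidogens and perlecan form the thin basement membrane around every cardiomyocyte and vessel.

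Tmbim1 averaged 8.43 ± 0.13 (SD, n = 3) in wild type and 7.53 ± 0.04 (SD, n = 3) in knockout hearts, and fell by 0.91 (SE 0.10, limma adjusted p = 0.00579), although the adjusted p was 0.0512 when knockout replicate 2 was left out. Where its probe set lies relative to the deleted part is not known here, so it checks the labels only in part. The defining cardiomyocyte genes Tnnt2, Actc1 and Myl2 were bright on every array, at 13.24 or above. Arrays differed in ways that genotype does not explain. Wild type replicate 3 lay at -37.0 on the first principal component of all probe sets, against -8.5 and -9.7 for the other wild type arrays and 11.0 to 23.4 for the knockout arrays. Knockout replicate 1 carried atrial genes, with Myl7 at 12.86, Myl4 at 12.98 and Sln at 12.17. These genes lay between 2.42 and 4.87 on the other arrays. Whether the same parts of the heart were taken for every array was not tested. For many genes and lists the value without wild type replicate 3 is also given. A value printed with all hearts only may have moved with that heart too.

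Of the 42 measured matrix genes, 1 passed the test and was higher in knockout hearts, the proteoglycan gene Prg4. None was lower past the threshold, an adjusted p of 0.05 by limma over all 38195 probe sets. By the same rule 0.422% of all probe sets passed, and 0.322% of all genes were higher past it. At an unadjusted limma p under 0.05, 12 matrix genes were higher and 0 lower, or 28.6% higher, where 5.19% of all genes were higher. In 10 of the 42, or 23.8%, all 3 knockout hearts lay above all 3 wild type hearts, as in 7.34% of all genes, and in 0 all knockout hearts lay below, as in 9.38% of all genes. The median difference was 0.36 over the 42 matrix genes and 0.00 over all genes. These counts rest in part on 1 heart. In wild type replicate 3 the signal was the lowest of the 6 arrays for 33 of the 42 matrix genes, as it was for 21.2% of all genes. Without that heart the median difference was 0.04 and 0 matrix genes passed the adjusted threshold, where 0.181% of all probe sets passed. In that fit 6 had an unadjusted p under 0.05 and were higher, or 14.3%, against 3.88% of all genes. Prelp (-0.41) and Lamb1 (-0.29) were lower by that rule, and the share of all genes lower in that fit is not given here. With that heart left out, 11 of the 42 had all knockout hearts above the remaining wild type hearts, against 11.1% of all genes. Another 4, Sparcl1, Prelp, Lama2 and Lamb1, had all knockout hearts below them, against 13.8% of all genes. Other hearts moved the count of 12 as well, to 22 without wild type replicate 1, 7 without knockout replicate 2 and 8 without knockout replicate 1 or 3. The share of all genes in those fits is not given here, so these counts cannot be set against it.

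**Figure D1:**
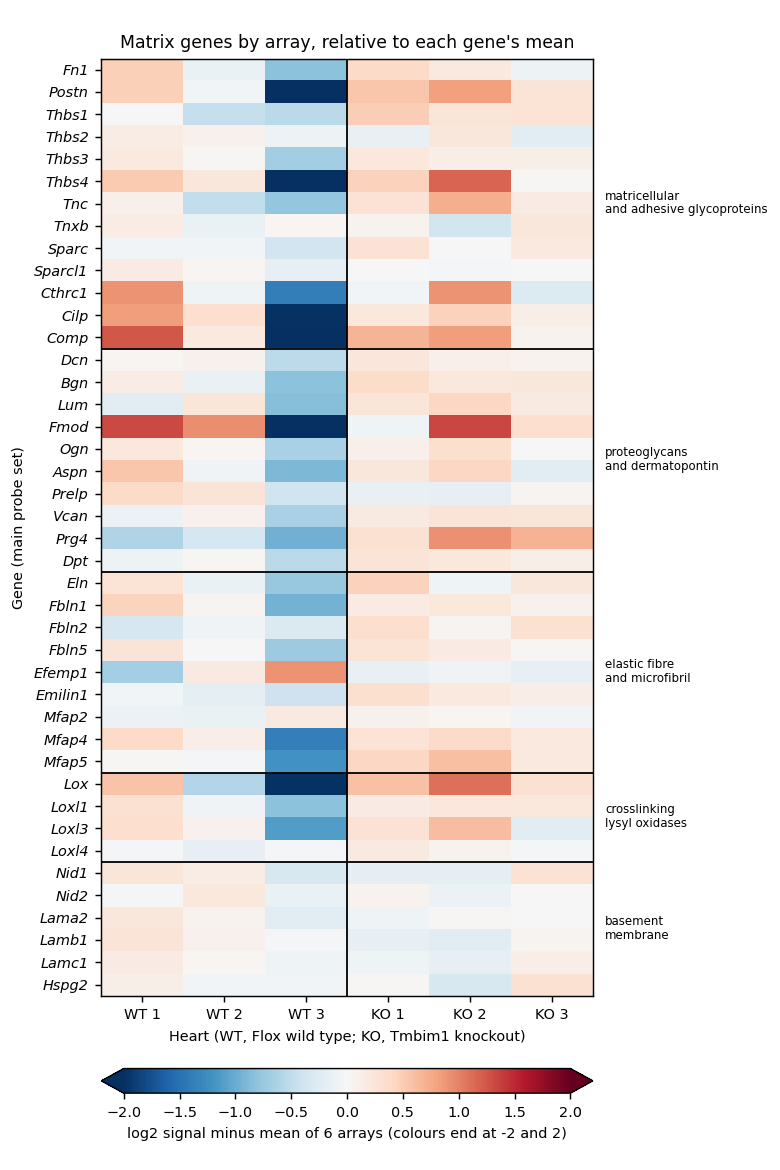
Log2 signal of the 42 matrix genes (rows, by role) in each of the 6 hearts (columns), as the difference from the gene's mean over the 6 arrays; red is above and blue below that mean, and colours end at -2 and 2. The column of wild type replicate 3 is the bluest, with Fmod, Comp, Thbs4, Cilp, Postn and Lox furthest below their means, while the basement membrane rows at the foot stay pale.

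Prg4, Thbs1, Tnc, Fbln2, Emilin1 and Mfap5 are the 6 that had an unadjusted p under 0.05 both with and without that heart. Their differences were still smaller without it, by little in Fbln2 (0.46 to 0.44) and by most in Mfap5 (0.80 to 0.40).

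Prg4 encodes lubricin, a mucin-like proteoglycan that lubricates joint and tendon surfaces. Its signal was 6.20, 6.46 and 5.85 in the wild type hearts and 7.11, 7.73 and 7.50 in the knockout hearts. The groups did not overlap, and the lowest knockout heart stood well clear of the highest wild type heart. Prg4 rose by 1.28 (SE 0.18, limma adjusted p = 0.0225), or 2.42-fold, with a 95% interval of 0.87 to 1.68. Leaving out single hearts moved the difference between 1.12 and 1.44. The call was lost when wild type replicate 3 was left out (adjusted p = 0.0605), as it was for wild type replicate 1 (0.0724), knockout replicate 2 (0.115) and knockout replicate 3 (0.0947). It was kept without either of the other hearts.

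Among the other proteoglycans, the small leucine-rich family binds collagen fibrils and governs their spacing and width. Biglycan (Bgn), which also ties up growth factors, stood at 11.08, 10.80 and 10.11 in wild type hearts and at 11.30, 11.14 and 11.15 in knockout hearts. All knockout hearts were above all wild type hearts, but the gap to wild type replicate 1 was narrow. The difference was 0.53 (SE 0.21, limma adjusted p = 0.379), and 0.26 without wild type replicate 3. Lumican (Lum) differed by 0.55 and decorin (Dcn) by 0.26, with adjusted p-values of 0.410 and 0.623. Without wild type replicate 3 these were 0.26 and 0.07. Decorin was at 12.42, 12.46 and 11.86 in wild type and at 12.60, 12.48 and 12.45 in knockout hearts, so wild type replicate 3 lay apart from the other 5 hearts. Osteoglycin (Ogn) and asporin (Aspn) showed the same arrangement, with differences of 0.27 and 0.28 that became 0.01 and -0.11 without that heart.

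Prelp, a leucine-rich protein that anchors basement membranes to collagen, was the 1 proteoglycan with a negative difference, -0.17 (adjusted p = 0.839). Without wild type replicate 3 it was -0.41 (adjusted p = 0.315), with all knockout hearts below the other wild type hearts. A dimmer Prelp probe set gave 0.01 with all hearts, with overlap. Versican (Vcan), a large hyaluronan-binding proteoglycan of provisional matrix, was at 7.25, 7.45 and 6.73 in wild type and at 7.55, 7.63 and 7.62 in knockout hearts. Its groups did not overlap, the knockout hearts were nearly equal, and the difference of 0.46 (SE 0.16, limma adjusted p = 0.339) did not pass and was 0.25 without wild type replicate 3. The brightest of the other versican probe sets differed by 0.56 (adjusted p = 0.211), without overlap, and the next by 0.32, with overlap. The rest were dim, with mean signals of 2.85 or less, and differed by 0.00 to 0.26, with overlap. Dermatopontin (Dpt), a small protein that binds decorin and speeds fibril formation, was at 9.56, 9.70 and 9.13 against 9.92, 9.88 and 9.78. That difference of 0.39 (adjusted p = 0.345) became 0.22 without wild type replicate 3. All 10 genes of the proteoglycan group had their lowest signal in wild type replicate 3.

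Thrombospondin 1 (Thbs1), which binds cells, activates latent TGF-beta and restrains vessel growth, was at 6.09, 5.62 and 5.54 in wild type hearts and at 6.57, 6.33 and 6.35 in knockout hearts. There was no overlap. The difference was 0.67 (SE 0.15, limma adjusted p = 0.114) and did not pass, although it did when wild type replicate 1 was left out (0.84, adjusted p = 0.0390). A dimmer Thbs1 probe set gave 0.34, with overlap. Tenascin C (Tnc), an anti-adhesive protein of injured and remodelling tissue, was at 4.88, 4.28 and 4.0 against 5.06, 5.50 and 4.95. Wild type replicate 1 came within a short distance of the lowest knockout heart. The difference of 0.78 (SE 0.22) had a limma adjusted p of 0.196, and it was 0.59 without wild type replicate 3. A far dimmer Tnc probe set gave 0.06, with overlap.

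Sparc, a collagen-binding protein needed for fibril maturation, was at 11.43, 11.43 and 11.10 in wild type hearts and at 11.77, 11.49 and 11.68 in knockout hearts. Knockout replicate 2 lay just above the wild type pair. The difference was 0.33 (SE 0.12, limma adjusted p = 0.358), and 0.22 without wild type replicate 3. Its next brightest probe set gave 0.29, with overlap. Fibronectin (Fn1), the adhesive glycoprotein on which other matrix is laid down, differed by 0.32 at its main probe set (adjusted p = 0.770) and by -0.01 without wild type replicate 3. A second, much dimmer fibronectin probe set, with a mean signal of 3.09, differed by 0.59 (adjusted p = 0.0975), so the 2 probe sets disagree in size.

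The other thrombospondins did not move as one. Thrombospondin 4 (Thbs4), which is induced in loaded hearts, was at 9.04, 8.75 and 6.12 in wild type and at 8.99, 9.69 and 8.55 in knockout hearts. Its difference of 1.11 (SE 0.63, adjusted p = 0.609) became 0.18 without wild type replicate 3. Thbs2 differed by -0.09 at its main probe set and by -0.13 and -0.07 at its others, and Thbs3 by 0.31 (0.04 without wild type replicate 3). None of these passed. Tenascin X (Tnxb), which spaces collagen fibrils, and Sparcl1, an anti-adhesive relative of Sparc, differed by -0.04 and -0.03, with 95% intervals of -0.38 to 0.30 and -0.27 to 0.21.

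**Figure D2:**
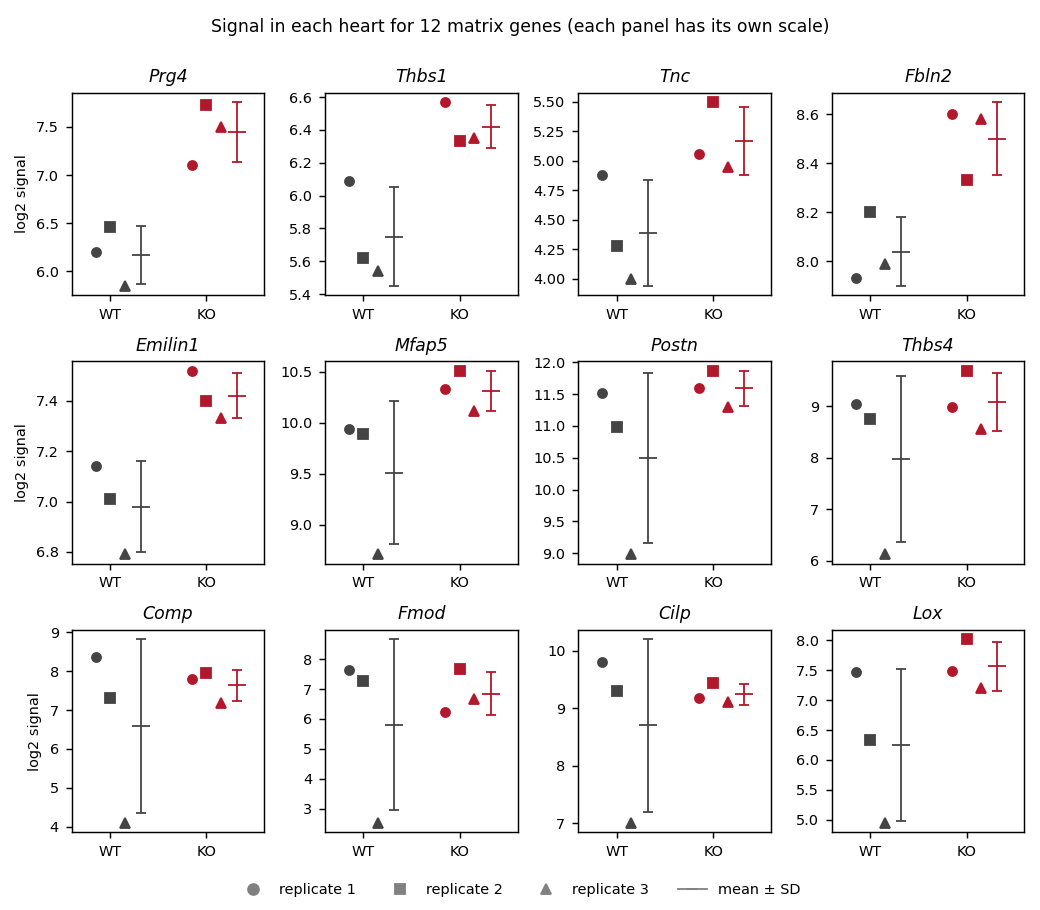
Log2 signal of 12 matrix genes in each heart, with wild type in grey, knockout in red, 1 symbol per replicate number, and mean ± SD beside the points; each panel has its own vertical scale. In Prg4, Thbs1, Tnc, Fbln2, Emilin1 and Mfap5 every red point is above every grey point, and in Postn, Thbs4, Comp, Fmod, Cilp and Lox the grey triangle of wild type replicate 3 lies far below all other points.

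Several of the matrix genes were far lower in wild type replicate 3 than in the other wild type hearts. Over all 18029 genes, the difference between wild type replicate 3 and the mean of the other wild type hearts had a median of 0.00 and a first percentile of -0.78. Of the 42 matrix genes, 20 lay below that percentile, as did 8 of 48 other matrix genes listed for comparison. Fibromodulin (Fmod) and Comp were the lowest of all 18029 genes by this measure, and Thbs4, Cilp, Postn and Lox were ranked 5, 8, 11 and 13. This description was chosen after the values were seen and compares 1 heart with others, so it has no test.

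Fibromodulin, a leucine-rich proteoglycan that primes collagen for crosslinking, was at 7.65 and 7.26 in wild type replicates 1 and 2 and at 2.51 in wild type replicate 3. In knockout hearts it was at 6.24, 7.66 and 6.66. The low value lies under the lower quartile of every array (2.72 to 2.78), where signals are compressed, so the size of the gap is uncertain. The 5 dimmer fibromodulin probe sets were also lower in that heart, by 1.85 to 2.97 below the mean of the other wild type hearts. Its difference between genotypes was 1.05 (SE 1.09, adjusted p = 0.827), and -0.60 without wild type replicate 3.

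Comp, a cartilage protein of the thrombospondin family that bundles collagen, was at 8.36, 7.31 and 4.09 in wild type and at 7.79, 7.94 and 7.18 in knockout hearts. Cilp, a secreted cartilage-type protein made by activated cardiac fibroblasts, was at 9.81, 9.30 and 7.0 against 9.18, 9.44 and 9.10. In both genes wild type replicate 1 was the highest of all 6 hearts and wild type replicate 3 the lowest. Without the latter, their differences turned from 1.05 and 0.54 to -0.20 and -0.32, none of which passed. Cthrc1, which marks matrix-producing fibroblasts in injured hearts, turned from 0.38 to -0.22.

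Periostin (Postn), the matricellular protein that marks activated fibroblasts, was at 11.52, 10.98 and 8.98 in wild type and at 11.60, 11.86 and 11.30 in knockout hearts. Knockout replicate 3 lay between the 2 higher wild type hearts. The difference was 1.09 (SE 0.51, limma adjusted p = 0.496), with a 95% interval of -0.04 to 2.22, and it was 0.33 without wild type replicate 3. Over the 13 genes of the adhesive and matricellular group the median difference was 0.38 with all hearts. It was -0.01 when wild type replicate 3 was left out and 0.84 when replicate 1 was.

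**Figure D3:**
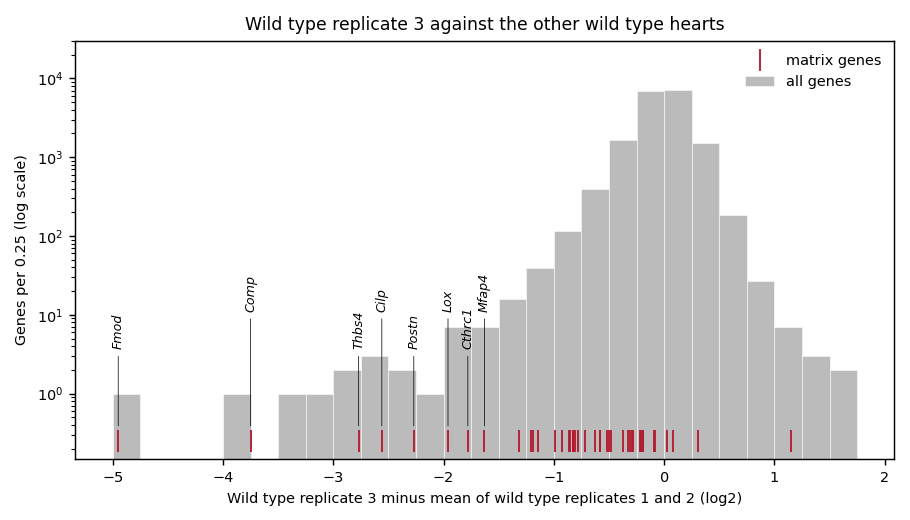
Signal in wild type replicate 3 minus the mean of wild type replicates 1 and 2 (horizontal axis, log2), as a count of all 18029 genes in steps of 0.25 (grey bars, log scale), with the 42 matrix genes as red ticks below. Most genes lie near 0, and the left tail holds Fmod at -4.95, Comp at -3.75, Thbs4 at -2.77, Cilp at -2.56 and Postn at -2.27.

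Promoter sequence is shown for 3 of these genes, fibromodulin, thrombospondin 4 and periostin, because they are among the genes furthest below the other wild type hearts in wild type replicate 3. Each is the 250 bases before a transcription start in RefSeq (GRCm38.p6), 5′ to 3′, in lower case, with motif matches in capitals. Matches on both strands were searched for the TATA box, spelled TATAAA. The AP-1 motif was TGANTCA. The TEAD motif was CATTCC. The SMAD motif was CAGACA. The fibromodulin stretch is chr1:134037004-134037253 on the + strand, that of thrombospondin 4 chr13:92794819-92795068 on the - strand and that of periostin chr3:54360857-54361106 on the + strand, the downstream one of its 2 listed starts.
Fmod: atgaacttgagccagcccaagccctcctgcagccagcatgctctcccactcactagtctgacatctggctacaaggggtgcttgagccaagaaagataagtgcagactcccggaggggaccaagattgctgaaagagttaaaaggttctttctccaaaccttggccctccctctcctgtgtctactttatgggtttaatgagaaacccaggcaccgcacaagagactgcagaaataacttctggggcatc
Thbs4: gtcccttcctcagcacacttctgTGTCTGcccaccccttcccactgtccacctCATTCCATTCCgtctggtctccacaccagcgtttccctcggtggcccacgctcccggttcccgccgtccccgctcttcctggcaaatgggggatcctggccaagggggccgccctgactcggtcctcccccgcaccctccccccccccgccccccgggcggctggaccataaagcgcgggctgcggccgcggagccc
Postn: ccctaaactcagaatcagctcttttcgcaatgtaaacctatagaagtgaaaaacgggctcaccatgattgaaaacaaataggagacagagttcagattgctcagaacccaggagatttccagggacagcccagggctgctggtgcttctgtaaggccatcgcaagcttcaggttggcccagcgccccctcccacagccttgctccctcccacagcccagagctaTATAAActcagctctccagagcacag

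No match to the 4 motifs was found in the fibromodulin stretch. The stretch of Cilp held none either and is not printed. Cilp lay further below the other wild type hearts than periostin in wild type replicate 3. The thrombospondin 4 stretch held 2 overlapping CATTCC matches, the nearer one starting 192 bases before the start, and 1 CAGACA match. That of periostin held TATAAA starting 26 bases before the start. The stretch before the upstream periostin start, chr3:54359017-54359266, which is not printed, held no match. Entries were found for 26 of the 42 genes, with 31 starts. Of these 31 stretches, 19.4% held TATAAA, 6.5% TGANTCA, 12.9% CATTCC and 29.0% CAGACA, against 12.4%, 6.7%, 12.6% and 17.1% of all 32851 stretches of the same length. A match is a run of letters and shows no binding.

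Elastic fibres consist of an elastin core in a sheath of microfibrils, with fibulins and emilins joining the parts. Fibulin 2 (Fbln2), a fibulin of provisional and valve matrix, was at 7.93, 8.20 and 7.99 in wild type hearts and at 8.60, 8.33 and 8.58 in knockout hearts. The groups did not overlap, and wild type replicate 3 was not the lowest. The difference was 0.46 (SE 0.12, limma adjusted p = 0.161), and 0.44 without wild type replicate 3, so it did not rest on that heart. A far dimmer Fbln2 probe set gave 0.16, with overlap. Emilin 1 (Emilin1), which sits between elastin and microfibrils and holds back TGF-beta maturation, was at 7.14, 7.01 and 6.79 against 7.52, 7.40 and 7.33. All knockout hearts were higher, by 0.44 on average (SE 0.11, adjusted p = 0.176), and by 0.34 without wild type replicate 3. A dimmer Emilin1 probe set gave 0.12, with overlap.

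Mfap5, a microfibril glycoprotein, was at 9.94, 9.89 and 8.71 in wild type and at 10.33, 10.51 and 10.11 in knockout hearts. Its difference of 0.80 (SE 0.28, limma adjusted p = 0.323) was 0.40 without wild type replicate 3, and its second probe set gave 0.74. Mfap4, another microfibril protein, was also low in wild type replicate 3, at 8.05, 7.80 and 6.29 against 7.93, 8.05 and 7.85. Its difference of 0.57 was 0.02 without wild type replicate 3. Mfap2 differed by 0.05 (95% interval -0.20 to 0.30).

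Elastin (Eln) differed by 0.41 at its main probe set (adjusted p = 0.609) and by -0.07 at a dimmer one. The main value was 0.13 without wild type replicate 3 and 0.00 without it and knockout replicate 1. Fibulin 1 (Fbln1) and fibulin 5 (Fbln5), the latter needed to assemble elastin, differed by 0.30 and 0.32, and by -0.09 and 0.03 without wild type replicate 3. Efemp1, a fibulin of fascia and the eye, was dim, with 2.21 to 3.79 over the hearts. Its signal was highest in wild type replicate 3, and its difference of -0.26 (adjusted p = 0.847) became 0.12 without that heart. Mfap2 was also highest in that heart at its main probe set, but lowest there at its second probe set. In the elastic fibre group 8 of 9 genes had a positive difference with all hearts, Efemp1 being the exception, and the median was 0.41, where 49.4% of all genes were positive. Without wild type replicate 3 it was again 8 of 9, with Fbln1 the exception and a median of 0.13, where 49.2% of all genes were positive.

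**Figure D4:**
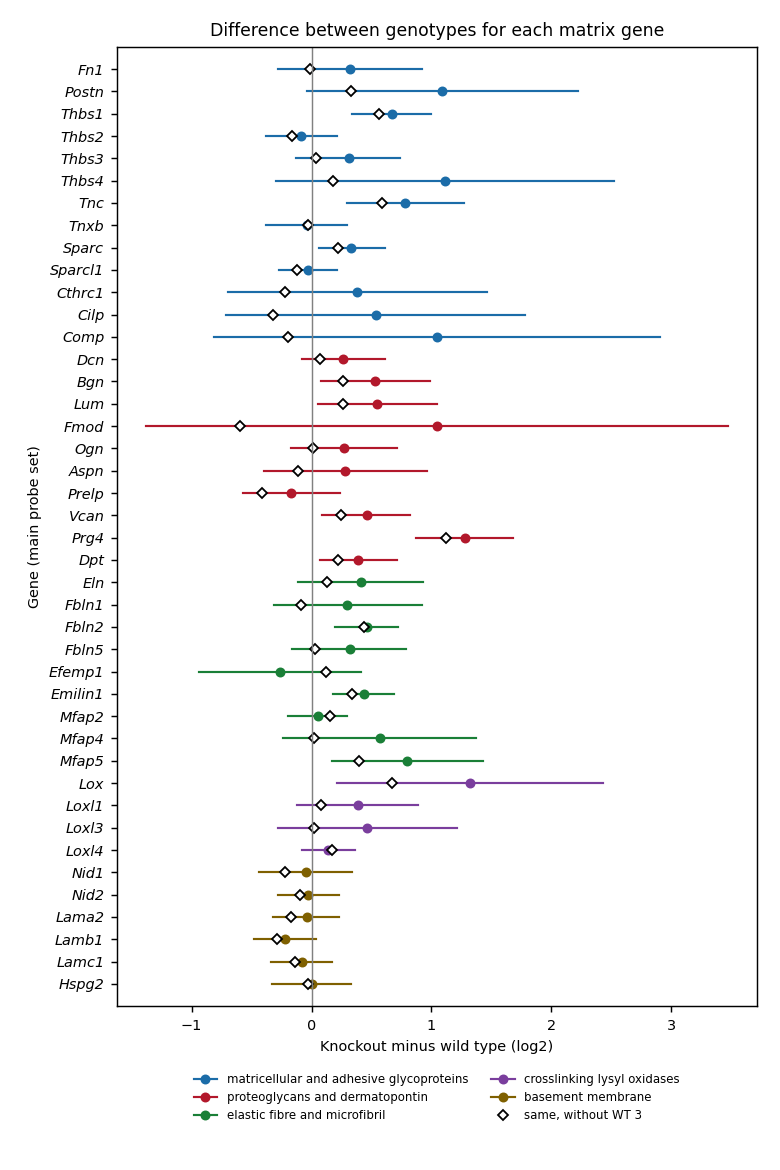
Knockout minus wild type (log2) for each of the 42 matrix genes, as a point with its 95% limma interval, coloured by role; open diamonds give the same difference without wild type replicate 3. Prg4 at 1.28 has an interval far from 0 and a diamond at 1.12, Fmod has the widest interval, from -1.38 to 3.47, and the basement membrane genes lie between -0.22 and 0.00.

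Lysyl oxidases oxidise lysines of collagen and elastin so that fibres become crosslinked and stiff. Lox, the founding member, was at 7.48, 6.33 and 4.94 in wild type and at 7.49, 8.02 and 7.21 in knockout hearts. The hearts overlapped only through wild type replicate 1. With all hearts Lox had the largest difference of the 42 genes, 1.32 (SE 0.50, limma adjusted p = 0.364), with a 95% interval of 0.21 to 2.43, and its second probe set gave 0.76. Another, dim Lox probe set gave -0.06. The main difference was 0.67 when wild type replicate 3 was left out, where that of Prg4, at 1.12, was the largest, and 1.94 when replicate 1 was. Loxl1, which acts on elastin, was at 9.01, 8.63 and 7.89 against 8.86, 8.92 and 8.91, a difference of 0.39 (adjusted p = 0.620) and of 0.08 without wild type replicate 3. Loxl3 differed by 0.46 (adjusted p = 0.715), and by 0.02 without that heart. Loxl4 was dim, at 3.43, 3.29 and 3.44 against 3.63, 3.53 and 3.42, and its 2 probe sets had opposite signs, 0.14 and -0.26, so no direction is given.

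Basement membrane genes did not share the positive differences. All 6 had a difference at or below 0.00, with a median of -0.05, where 49.4% of all genes were positive. By limma 0 passed, with 0 main probe sets at an unadjusted p under 0.05 in either direction. Further laminin chains, outside the list, are given below with the other matrix genes. Laminin beta 1 (Lamb1) was at 8.94, 8.78 and 8.67 in wild type and at 8.53, 8.46 and 8.75 in knockout hearts. Knockout replicate 3 overlapped the wild type hearts. The difference was -0.22 (SE 0.12, limma adjusted p = 0.559), and 2 dimmer Lamb1 probe sets gave -0.27 and -0.25, the second with no overlap, while the dimmest gave 0.02. Without wild type replicate 3 the difference of the main probe set was -0.29 (adjusted p = 0.557), and the groups did not overlap.

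Laminin gamma 1 (Lamc1), the chain shared by most laminins, was at 8.20, 8.07 and 7.95 against 7.95, 7.86 and 8.16. Laminin alpha 2 (Lama2), the muscle laminin chain whose loss causes muscular dystrophy, was at 8.96, 8.80 and 8.51 against 8.64, 8.75 and 8.74. In both genes the groups overlapped. Their differences were -0.08 and -0.04, with 95% intervals of -0.34 to 0.17 and -0.32 to 0.23, and they were -0.14 and -0.17 without wild type replicate 3. Nidogen 1 (Nid1), which links laminin to type IV collagen, was at 9.18, 9.09 and 8.62 against 8.74, 8.76 and 9.23, with no order by genotype. It differed by -0.05 (-0.22 without wild type replicate 3), nidogen 2 (Nid2) by -0.03 and perlecan (Hspg2), the basement membrane heparan sulphate proteoglycan, by 0.00 with a 95% interval of -0.33 to 0.33.

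With all hearts kept, wild type hearts varied more among themselves than knockout hearts at these genes. Wild type replicate 3, the lowest array for 33 of the 42, enters that spread, and the spread without it is not given here. The SD was larger in the wild type group for 34 of the 42, or 81.0%, against 59.1% of all genes. In periostin it was 1.34 against 0.28, in fibromodulin 2.86 against 0.73 and in Loxl1 0.57 against 0.03. Wild type replicate 1 lay at or above the lowest knockout heart in 28 of the 42 genes and wild type replicate 2 in 21, whereas wild type replicate 3 did so in 8.

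Of 48 other measured matrix glycoproteins and proteoglycans, listed for what they are, 1 passed the test. Emilin2, a relative of emilin 1 found in heart and vessels, was at 6.63, 6.56 and 6.84 in wild type and at 6.08, 5.83 and 5.93 in knockout hearts. There was no overlap, and Emilin2 fell by 0.73 (SE 0.11, limma adjusted p = 0.0337), the opposite sign to emilin 1. Leaving out any single heart ended the call, with adjusted p-values of 0.0670 to 0.155 and differences of -0.80 to -0.65. At an unadjusted p under 0.05, 6 of the 48 were higher and 6 lower, where 5.19% of all genes were higher and 6.33% lower. The lower ones include the laminin chains Lama5 (-0.38), Lamb2 (-0.29) and Lamb3 (-0.48), named after their values were seen. Lama4 (-0.15) and Lama3 (0.03) did not reach that p. The median difference of the 48 was 0.11, and 0.00 without wild type replicate 3.

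Vitronectin (Vtn), an adhesive glycoprotein of plasma and matrix, was at 7.07, 7.30 and 7.67 against 6.67, 6.63 and 6.89. Its difference of -0.62 (adjusted p = 0.150) was -0.45 without wild type replicate 3. Aebp1, a collagen-binding protein of fibroblasts, differed by 0.42 (adjusted p = 0.175), and the groups did not overlap. Without wild type replicate 3 that difference was 0.32. Multimerin 1 (Mmrn1), a platelet and endothelial protein of the emilin family, was at 5.10, 3.92 and 3.75 against 5.04, 5.27 and 6.31. Its difference of 1.28 did not pass (adjusted p = 0.227), and was 1.03 without wild type replicate 3.

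Cell type markers were read on the same arrays, and in heart tissue more cells of a type and more RNA per cell cannot be told apart. Of 12 fibroblast markers 0 passed by limma, with 2 higher and 2 lower at an unadjusted p under 0.05 and a median difference of 0.20. By that rule 5.19% of all genes were higher and 6.33% lower, the shares to set beside the lists below as well. The summed level of the fibroblast markers ran from 12.55 to 12.75 (log2) in wild type and from 12.48 to 12.82 in knockout hearts. That in wild type replicate 3, 12.55, was the lowest of the wild type hearts. Gsn, the brightest of these markers at 10.94 to 11.66, weighs most in these sums. Pdgfra, the receptor that defines cardiac fibroblasts, was at 8.47, 8.32 and 7.72 against 8.15, 8.17 and 8.10, and Tcf21, a fibroblast transcription factor, at 6.43, 6.96 and 6.48 against 7.20, 6.67 and 6.70. In both genes the groups overlapped. The list went both ways. The 4 at an unadjusted p under 0.05, named after their values were seen, were Vim (0.37) and Medag (0.49), which were higher, and Gsn (-0.34) and Scara5 (-1.04), which were lower. Vim and Thy1 (0.18) had no overlap upward and Gsn none downward. Without wild type replicate 3 the list's median was 0.10, with 0 higher at an unadjusted p under 0.05, against 3.88% of all genes.

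Among 8 myofibroblast and smooth muscle markers 0 passed and 2 were higher at an unadjusted p under 0.05, or 25%, against 5.19% of all genes. The summed level of this list was 12.57 to 12.59 against 12.61 to 12.92, with Acta2 at 10.53 in knockout replicate 1 and at 9.40 to 9.80 elsewhere. Rgs5, the brightest gene of this list at 12.15 to 12.27, weighs most in that sum. Of 12 macrophage and monocyte markers 0 passed and 6 were higher at an unadjusted p under 0.05, or 50%, against 5.19% of all genes. The summed level of these markers was 11.44 to 11.83 against 11.90 to 12.02. Wild type replicate 3 was the lowest array for 10 of these 12, or 83.3%, as it was for 78.6% of the matrix genes. Without it 3 were higher at an unadjusted p under 0.05, against 3.88% of all genes, and the median was 0.14 in place of 0.28. The medians of 7 epicardial and 7 valve or tendon-like markers were 0.07 and 0.12, with 0 past the threshold and 1 of each list higher at an unadjusted p under 0.05. Of 8 endothelial markers 0 passed, with 1 higher at an unadjusted p under 0.05 and a median of -0.01. All 11 cardiomyocyte markers were negative, with a median of -0.11, 0 past the threshold and 1 lower at an unadjusted p under 0.05. In 9 of the 11 all knockout hearts lay below all wild type hearts, against 9.38% of all genes. Of 6 atrial markers 1 passed, Nppa, the natriuretic peptide gene that loaded ventricles also express, named after its value was seen. It was at 12.67, 12.67 and 11.85 in wild type and at 13.78, 13.63 and 13.36 in knockout hearts, and rose by 1.19 (limma adjusted p = 0.0496). The adjusted p was 0.0437 without wild type replicate 3, and 0.0756 to 0.206 with any other heart left out, which ended the call. Without knockout replicate 1, the array with atrial signal, the median difference of the 42 matrix genes was 0.29 and 8 were higher at an unadjusted p under 0.05. The share of all genes in that fit is not given here. The part of cell mixture in these differences was not tested.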

How the data were processed

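The authors deposited 1 table of log2 signals per probe set for 6 arrays, made with RMA, and they name limma as a further tool, per the submitters' processing notes; their versions and settings are not given in the sources used here. That method corrects background, gives every array 1 distribution and combines probes on the log2 scale, which removes any shift common to all genes and compresses dim and saturated signals. Per the labels' protocols, 400 ng of total RNA went into each labelling reaction.

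Of 38208 rows, 13 control probe sets were left out. The platform annotation gave 34325 of the other 38195 a single symbol, 62 several and 3808 none. Of those with a single symbol, 34131 were found by Entrez identifier in the RefSeq gene table (GRCm38.p6), and 0 symbols changed. The genotype difference was tested two-sided with lmFit and eBayes of limma 3.58.1 in R 4.3.3, with Benjamini-Hochberg adjustment over all 38195 probe sets. All adjusted p-values come from that fit unless a heart is said to be left out. The code was tested on simulated data.

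Groups were taken from the sample titles. Nothing but the labels says that the mice are separate animals, and n is 3 in each group, which limits the precision of every value. A summed level is log2 of the summed linear signals of a list, so the brightest genes of the list weigh most in it. Members, lists and tests were chosen with earlier results of these data known. All measured matrix genes are named. Signals of every heart are given for genes past the threshold, for the 3 genes of each role group with the smallest unadjusted p and for the gene of each group with the highest mean signal. Of the other matrix genes, the 4 with the smallest unadjusted p, which include the 1 past the threshold, are named. Their laminin chains are named too, chosen after their values were seen. Further genes shown heart by heart were chosen after their values were seen.

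Alternatives tried were the replicate number as a block, variance priors with a trend or robust to outliers, weighted arrays, centring each array on its median, quantile normalization applied once more, a filter at the 40th percentile of mean signal (40 of 42 matrix genes pass, Efemp1 and Loxl4 do not), 1 probe set per gene, the mean of a gene's probe sets, and each array left out. Leaving out wild type replicate 3 together with knockout replicate 1 was added after seeing the data.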

Additional observations from a re-analysis of the deposited data

How the results depend on the processing

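With 3 mice in each group the results turn on single hearts. Leaving out 1 heart at a time gave 0 to 1 matrix genes past the threshold (0 without wild type replicate 3, knockout replicate 2 or knockout replicate 3), 6 to 22 higher at an unadjusted p under 0.05 against 12 with all hearts, and median differences of -0.01 to 0.84 for adhesive and matricellular genes. For all 42 matrix genes the median ran from 0.04 to 0.52, for proteoglycans from 0.15 to 0.56, for elastic fibre genes from 0.13 to 0.53, for lysyl oxidases from 0.12 to 0.69 and for basement membrane genes from -0.16 to 0.02. The lowest of these medians came without wild type replicate 3 in each case, tied for basement membrane genes with knockout replicate 3 left out. Of the other matrix genes 0 passed with any heart left out. The share of all genes higher at an unadjusted p under 0.05 is given only with all hearts and without wild type replicate 3.

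The sign of 14 matrix genes, none past the threshold, changed with a single heart left out. Their differences ran from -0.01 to 0.63 for Fn1, -0.17 to 0.13 for Tnxb, -0.12 to 0.05 for Sparcl1, -0.22 to 0.92 for Cthrc1, -0.32 to 1.09 for Cilp, -0.20 to 1.94 for Comp, -0.60 to 1.97 for Fmod, -0.11 to 0.62 for Aspn, -0.09 to 0.60 for Fbln1, -0.67 to 0.12 for Efemp1, -0.01 to 0.15 for Mfap2, -0.22 to 0.06 for Nid1, -0.10 to 0.07 for Nid2 and -0.17 to 0.06 for Lama2. Hspg2, at 0.00 with all hearts, ran from -0.15 to 0.16. Thbs1 ran from 0.56 to 0.84 and passed in 1 of 6 such fits.

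Without wild type replicate 3 and knockout replicate 1 together, 6 genes were higher at an unadjusted p under 0.05, the medians were 0.02 for all matrix genes and -0.08 for adhesive and matricellular genes, 0 other matrix genes passed, and 1 matrix gene did, Prg4 (adjusted p = 0.0300). In that fit the sign turned for Fn1 (-0.13), Cthrc1 (-0.09), Cilp (-0.28), Comp (-0.28), Fmod (-0.30), Aspn (-0.15), Fbln1 (-0.10), Fbln5 (-0.03) and Efemp1 (0.13).

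With the replicate block 15 genes were higher at an unadjusted p under 0.05 and 1 passed. Deviations of same-numbered hearts correlated at 0.060, 0.138 and 0.016, and wild type replicate 3 correlated best with knockout replicate 1, so the numbers were not taken as pairs. Every other alternative with all 6 hearts kept Prg4 past the threshold (adjusted p = 0.0126 to 0.0292) in the fits that test single probe sets, and gave 11 or 12 genes higher at an unadjusted p under 0.05. The cause of these shifts was not tested beyond the hearts left out. Efemp1, Loxl4 and Fmod in wild type replicate 3 were too dim for firm sizes.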

Other observations

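Genes outside the list were low in wild type replicate 3 as well. Of the 15 genes furthest below the mean of the other wild type hearts, 6 are matrix genes described above and 9 are not. The latter were Ecrg4 (-3.35), the collagen genes Col8a2 (-3.04) and Col12a1 (-2.77), Ltbp2 (-2.56), which belongs to the latent TGF-beta binding protein family, Pamr1 (-2.51), the NADPH oxidase gene Nox4 (-2.29), the secreted Wnt modulator Sfrp2 (-2.10), the heparin-binding growth factor gene Ptn (-1.96) and Abi3bp (-1.93). Ltbp2 was at 7.49, 6.72 and 4.55 in wild type hearts and at 7.48, 7.55 and 7.15 in knockout hearts. Col12a1 was at 6.43, 5.60 and 3.25 against 5.61, 6.19 and 5.21. These genes were picked by that rank, so their values are a description of 1 heart.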
